A study of Mus musculus with 3 samples.

Results

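Laminins are the cross-shaped heterotrimers, each of an α, a β, and a γ chain, that form the sheet-like network of the basement membrane. The genes examined here were the 6 laminin chain genes among the 84 extracellular matrix (ECM) genes for which the study lists mm9 positions, namely *Lama1*, *Lama2*, *Lama3*, *Lamb2*, *Lamb3*, and *Lamc1*. The rule takes them by name and uses no measured value, although the family was picked with earlier results of these data known, and the remaining 78 ECM genes serve for comparison. An H3K27ac peak was given to a laminin gene when its transcription start site (TSS) was the nearest of the 84, with the peak edge at most 100 kb away. Peaks within 2.5 kb of the TSS are called promoter peaks and those beyond it distal peaks. By this rule the laminin genes held 24, 47, and 65 peaks in the lists of 2, 10, and 20 months, which are 17884, 35221, and 44752 peaks long.

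The mark was profiled by ChIP-seq in tibialis anterior (TA) muscle, a muscle at the front of the shin, of C57/BL6 mice aged 2, 10, and 20 months that carried no transgene or treatment according to the labels. Each age is 1 library, so that no test of age is possible and no p-value is given. In the labels the tissue is TA muscle, but their extraction text speaks of activated SCs and of RNA. Whole muscle contains myofibers, fibroblasts, vessels, and immune cells, and fewer cells of a type and less H3K27ac per cell cannot be told apart in it. The muscle identity could not be checked on defining muscle genes, because positions in mm9 were at hand only for the 84 ECM genes.

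H3K27ac is the acetylation of lysine 27 on histone H3 and is found at active promoters and enhancers. In muscle, laminin-211, built of the α2, β1, and γ1 chains, surrounds each myofiber and is held by α-dystroglycan and by the integrin α7β1, and loss of the α2 chain causes a congenital muscular dystrophy. The α1 chain belongs mostly to embryonic basement membranes, the β2 chain is concentrated at the neuromuscular junction, the α3 and β3 chains belong to laminin-332 of epithelia, and γ1 is the γ chain of most laminins.

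The libraries differed in more than age. The list at 2 months is the shortest and its peaks are the narrowest, with a mean width of 337 bp, against 493 bp at 10 months and 435 bp at 20 months. The number of reads at the summit of each peak was solved from the deposited fold and −log10 p. It is given below as reads or as summit coverage, which is these reads in multiples of the genome-wide mean (the genome mean) of 1.26, 2.24, and 2.5 reads at 2, 10, and 20 months. These means correspond to libraries of 15.9 M, 18.9 M, and 26.3 M reads at the same ages. The lowest summit that entered a list was 8 reads at 2 months, 6.34 times the genome mean, and 10 reads at both 10 and 20 months, 4.46 and 3.99 times the mean. A weak region can therefore be missing from the list at 2 months and present in the later lists at the same coverage. The part of depth, fragment length, and list length in the differences below was not tested.

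The TSS-proximal sequences are shown for 3 laminin genes that differed in promoter acetylation. *Lama2* had a promoter peak at 10 and 20 months, *Lamb2* at all ages, and *Lamb3* at none. Each run is the 250 bases just before the RefSeq transcript start whose gene span equals that of the ECM list, read 5′ to 3′ along the gene in GRCm38.p6, at chr10:27616943-27617192 (minus strand) for *Lama2*, chr9:108479612-108479861 (plus strand) for *Lamb2*, and chr1:193301993-193302242 (plus strand) for *Lamb3*. These starts are inner ones. The RefSeq genes extend over 635.907 kb (*Lama2*), 10.684 kb (*Lamb2*), and 49.526 kb (*Lamb3*), against 635.657, 10.669, and 41.636 kb as listed. The *Lama2* and *Lamb3* windows therefore lie largely or wholly within the RefSeq gene, and sequences before the outer starts were not searched. Capitals mark the E-box letters CACCTG, to which myogenic and other helix-loop-helix factors can bind.
Lama2: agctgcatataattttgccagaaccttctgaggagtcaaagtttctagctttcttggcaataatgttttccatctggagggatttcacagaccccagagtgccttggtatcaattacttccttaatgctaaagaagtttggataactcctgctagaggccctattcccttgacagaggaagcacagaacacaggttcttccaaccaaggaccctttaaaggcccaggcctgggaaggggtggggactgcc
Lamb2: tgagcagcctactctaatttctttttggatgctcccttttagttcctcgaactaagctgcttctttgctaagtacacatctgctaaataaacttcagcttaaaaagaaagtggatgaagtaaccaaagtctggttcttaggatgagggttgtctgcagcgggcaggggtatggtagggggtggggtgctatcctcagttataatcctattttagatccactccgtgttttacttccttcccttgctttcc
Lamb3: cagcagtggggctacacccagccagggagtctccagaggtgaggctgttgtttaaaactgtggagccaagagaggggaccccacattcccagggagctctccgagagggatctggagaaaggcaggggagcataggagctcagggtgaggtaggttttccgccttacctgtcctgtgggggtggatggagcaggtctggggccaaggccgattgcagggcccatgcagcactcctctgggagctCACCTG
Searched on both strands were the E-box with the letters CAGCTG, the other E-box form CACCTG, the GC box with the letters GGGCGG, the TATA box with the letters TATAAA, and the CCAAT box. The one match was CACCTG in the last 6 bases before the *Lamb3* start, overlapping no other motif. Over all 32851 RefSeq promoter windows of this length, 27.7% held an E-box of either kind, 32.7% a GC box, 12.4% a TATA box, and 33.8% a CCAAT box. The *Lama2* window had no CpG and 47.2% GC, the *Lamb2* window 3 CpG and 43.6% GC, and the *Lamb3* window 3 CpG and 61.2% GC, against medians of 6 CpG and 52.4% GC over all windows. In mm9 the *Lama2* promoter region spans the listed TSS itself, and the *Lamb2* promoter regions lie on both sides of it.

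Most laminin peaks were distal, and the later lists held more of them. Distal peaks numbered 20, 41, and 58 at 2, 10, and 20 months, beside 4, 6, and 7 promoter peaks at the same ages. A distal peak was found at 4, 5, and 6 of the 6 genes at 2, 10, and 20 months, while over all 84 ECM genes the share with a distal peak was 48.8%, 67.9%, and 75%. A promoter peak was found at 2, 3, and 3 of the 6 genes at 2, 10, and 20 months, against 26.2%, 34.5%, and 50% of the ECM genes. The median laminin gene had 2.5, 7, and 9.5 distal peaks at 2, 10, and 20 months, and the median of the other ECM genes was 0, 2, and 2.5. More distal peaks at 20 than at 2 months were counted at 6 of 6 laminin genes, beside 67.9% of the ECM genes, and more at 10 than at 2 months at 5 of 6, beside 57.1%. Laminin distal peaks made up 0.112%, 0.116%, and 0.130% of the lists at 2, 10, and 20 months. When the longer lists were cut to the length of the shortest, 17884 peaks, by q, the laminin distal peaks numbered 20, 18, and 22 at 2, 10, and 20 months, so that in lists of equal length the count at 10 months was below and that at 20 months 2 above the count at 2 months. In these lists a distal peak was found at 4 of the 6 genes at each age. *Lama1* had 2, 0, and 1 distal peaks at 2, 10, and 20 months, *Lama2* 0, 1, and 0, and *Lama3* none. *Lamb2* had 11, 9, and 12 at the same ages, *Lamb3* 4, 4, and 5, and *Lamc1* 3, 4, and 4. The *Lama2* promoter peak was listed there at 20 months only.

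**Figure D1:**
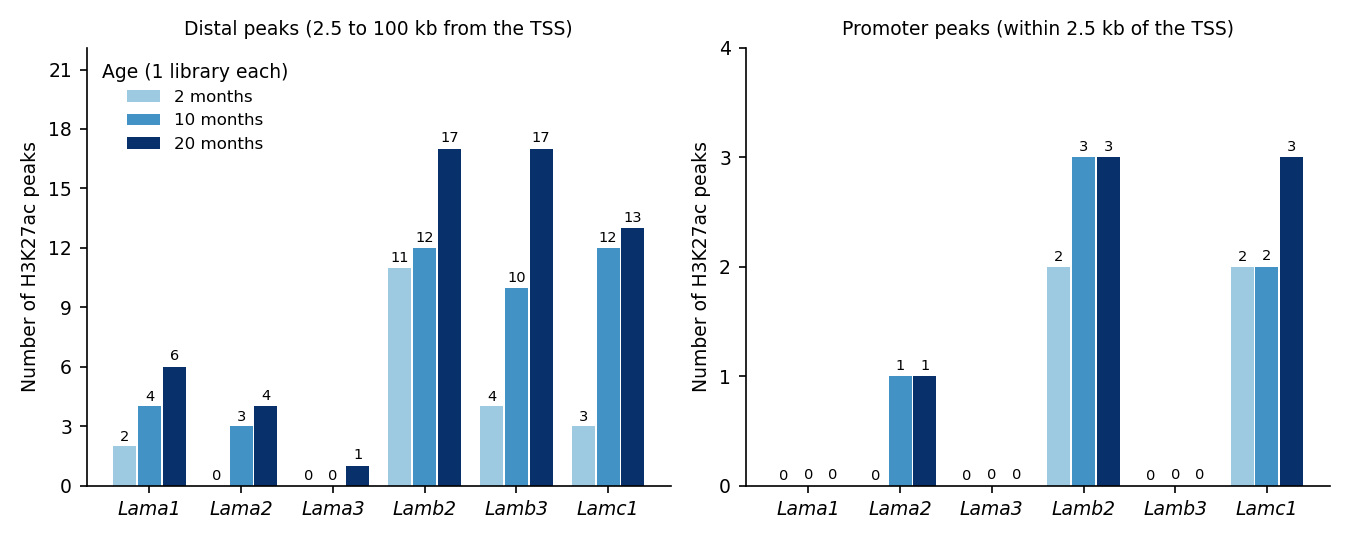
Number of H3K27ac peaks (vertical axis) given to each laminin gene at 2, 10, and 20 months (light to dark bars, 1 library each), distal on the left and promoter on the right. *Lamb2* has the most distal peaks at 2 months (11), *Lamb2* and *Lamb3* have 17 each at 20 months, and *Lama1*, *Lama3*, and *Lamb3* have no promoter peak at any age.

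The positions of the regions, obtained by joining peaks of the 3 lists that share at least 1 bp, set the genes apart from each other. The 65 laminin regions comprise 59 distal and 6 promoter regions. In the map of summits, those of *Lama1* lie upstream and far from the gene, those of *Lamc1* lie mostly in the gene, and those of the short gene *Lamb2* surround it.

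**Figure D2:**
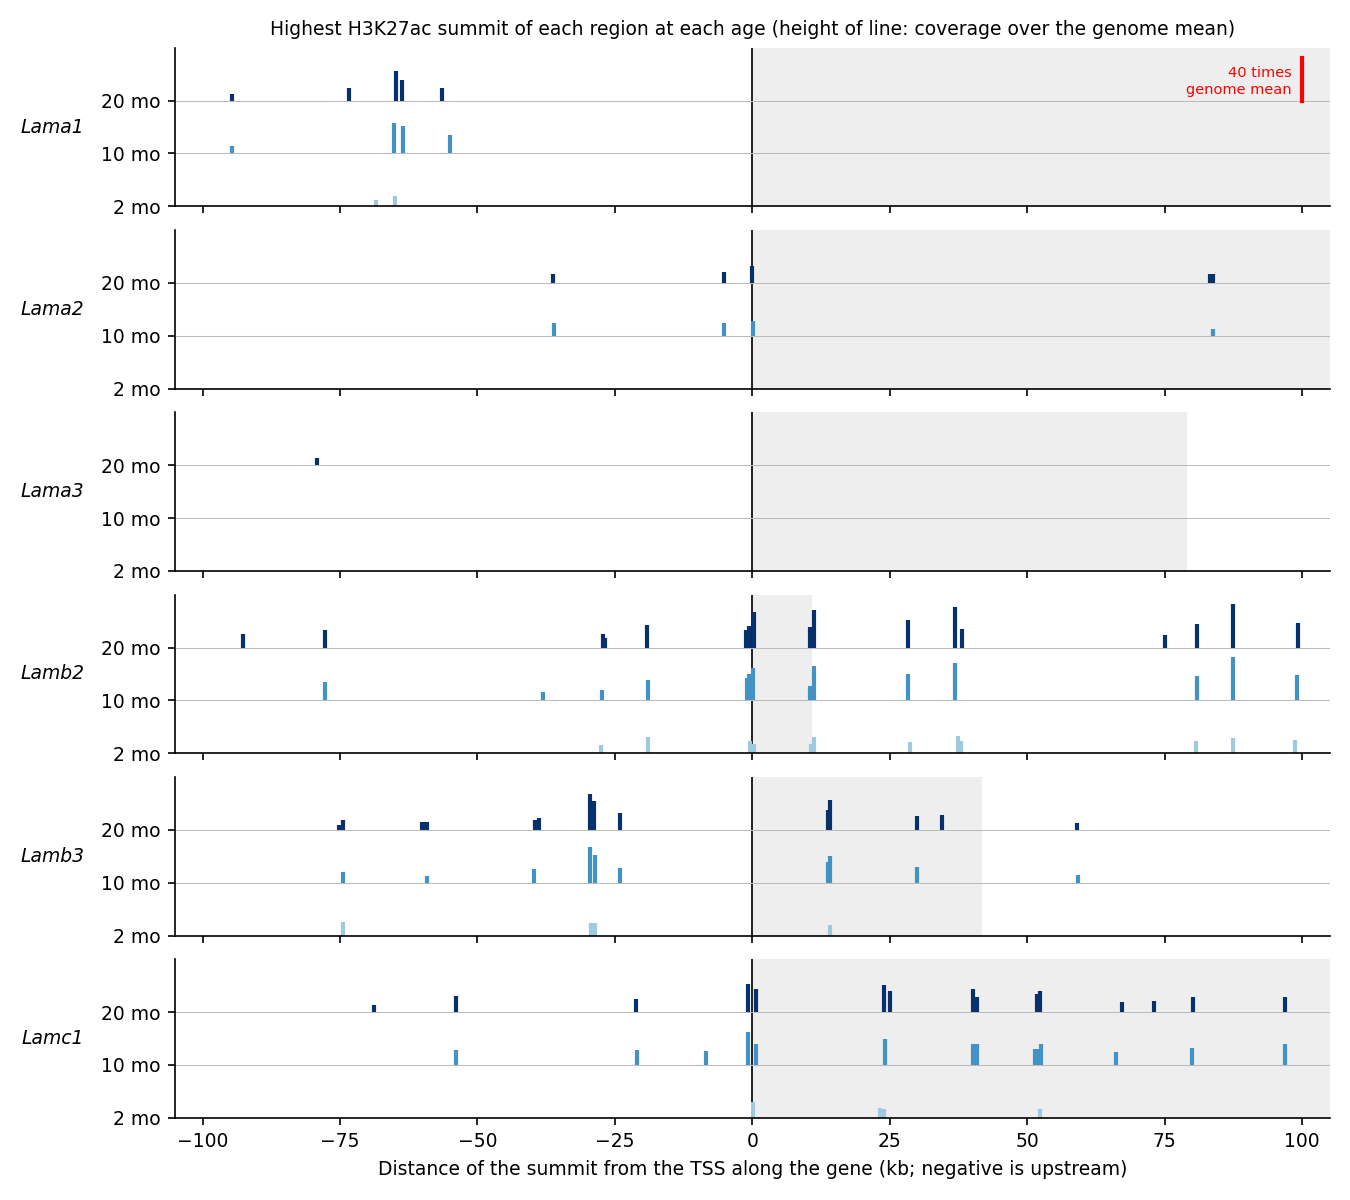
Summits of the laminin regions against their distance from the TSS in kb along the direction of transcription (horizontal axis), with a row for each age in each gene. The height of a line is summit coverage in times the genome mean (scale bar, 40 times), and the shaded span is the gene as listed. The lines are tallest at *Lamb2*, 41.5 times the mean at both 10 and 20 months, and at 2 months no line is taller than 16.7.

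*Lama1*, on chromosome 17 (plus strand, 68046605–68171985 in mm9), had 2, 4, and 6 distal peaks at 2, 10, and 20 months. All of them lay 54.8 to 94.3 kb upstream of the TSS, and the 125-kb gene itself held no peak at any age. The strongest region was at chr17:67980779-67982032, 65.0 kb upstream, with 12, 65, and 71 reads at 2, 10, and 20 months. That is 9.52, 29.0, and 28.4 times the genome mean. Among all regions shared by the 3 lists this placed it at percentile 22.6 at 2 months, 75.1 at 10 months, and 67.1 at 20 months, higher at both later ages than at 2 months. The place at 2 months rests on 12 reads, and a region of 15 reads there stands at percentile 54.5, so a few reads shift it far. Next to it, a region 63.6 kb upstream had 59 reads at 10 months and 49 at 20 months and no peak at 2 months, whereas a peak of 8 reads 68.4 kb upstream was present at 2 months only.

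*Lama2* encodes the α chain of the myofiber basement membrane. The gene (chromosome 10, minus strand, 26701092–27336748) extends over 636 kb, the longest of the 6. Neither a distal nor a promoter peak was listed at 2 months. The promoter region at chr10:27336296-27336965 had 31 reads at 10 months and 40 at 20 months, 13.8 and 16.0 times the genome mean. Distal peaks numbered 3 at 10 months and 4 at 20 months and were weak. A region 36.1 kb upstream had 28 and 21 reads at 10 and 20 months, and one 5.08 kb upstream had 28 and 26 reads. In the gene, a region 83.7 kb from the TSS had 15 and 20 reads, and another, 83.2 kb from it, had 20 reads at 20 months only. At 15 reads, 6.69 times the mean at 10 months, the weakest of these is close to the lowest coverage that the list at 2 months could hold.

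*Lama3* (chromosome 18), the epithelial α chain, had 1 peak in all. It was found at 20 months, 79.1 kb before the listed start, with 17 reads or 6.79 times the mean. The listed start is an inner one, since the listed span is 78.8 kb and the RefSeq gene in GRCm38.p6 extends over 249.6 kb, so a peak before the listed start can lie within the gene, and peaks at the outer start were not counted as promoter peaks.

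*Lamb2*, the β chain of the neuromuscular junction, is the shortest of the 6 genes (10.7 kb, chromosome 9, plus strand, 108382193–108392861) and had the most distal peaks at 2 months. There were 11, 12, and 17 at 2, 10, and 20 months. Of these, 8, 7, and 10 at 2, 10, and 20 months lay downstream of the gene, 2, 4, and 6 upstream, and 1 at each age at its 3′ end. Of its 15 distal regions 9 were listed at all ages, against 4 of 15 at *Lamb3* and 2 of 17 at *Lamc1*. The region with the highest summit among the 6 genes at 10 and 20 months lay 87.4 kb downstream of the TSS, at chr9:108468884-108470487, with 18, 93, and 104 reads at 2, 10, and 20 months. Among the shared regions it stood at percentile 76.8, 97.2, and 95.7 at the same ages. A region 37.3 kb downstream had 21, 79, and 95 reads at the same ages, and one just past the gene, 11.2 kb from the TSS, had 19, 73, and 90 reads. At 2 months the region 37.3 kb downstream was the highest of these.

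Upstream of *Lamb2* the ratios between ages were lower. The region 19.0 kb upstream had 19, 43, and 53 reads at 2, 10, and 20 months, and that 27.5 kb upstream had 10, 23, and 32 reads. Relative to the genome mean their ratios of 20 over 2 months were 1.41 and 1.61, and the exact 95% interval of each included 1.

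The promoter of *Lamb2* was divided among 3 regions. The region just inside the gene, chr9:108382225-108382928, had 11, 69, and 83 reads at 2, 10, and 20 months. The one just before the TSS, chr9:108381404-108381991, had 15, 55, and 50 reads, and a narrow one further upstream, chr9:108380968-108381285, had 47 reads at 10 months and 42 at 20 months with no peak at 2 months. The region inside the gene thus was the lowest of the shared pair at 2 months and the highest at both later ages.

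*Lamb3*, the β chain of laminin-332 (chromosome 1, plus strand, 195128437–195170072, 41.6 kb), had no promoter peak at any age. The RefSeq gene is longer, at 49.5 kb, and the nearest peak upstream of the listed start was 23.9 kb away. Its 4, 10, and 17 distal peaks at 2, 10, and 20 months were mostly upstream. Of them 3, 6, and 11 were upstream at 2, 10, and 20 months, 1, 3, and 5 in the gene, and 0, 1, and 1 downstream. The difference of 13 peaks between 20 and 2 months, in lists of unequal length, ranked 2 of the 84 ECM genes. In lists of equal length *Lamb3* had 4, 4, and 5 distal peaks at 2, 10, and 20 months. With peaks within 1 kb merged it had 3, 8, and 9. A pair of neighbouring regions stood out upstream. That at chr1:195097863-195099234, 29.4 kb before the TSS, had 15, 75, and 85 reads at 2, 10, and 20 months, and that 28.6 kb before it had 15, 59, and 69 reads. In the gene, 14.1 kb from the TSS, a further region had 12, 57, and 71 reads. The region 74.4 kb upstream was the exception, with 16, 22, and 23 reads at 2, 10, and 20 months, or 12.7, 9.81, and 9.19 times the genome mean. It was, by 1 read, the strongest *Lamb3* region at 2 months and the weakest of the shared ones at 10 and 20 months.

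*Lamc1*, the common γ chain (chromosome 1, minus strand, 155066052–155179916, 114 kb), had 3, 12, and 13 distal peaks at 2, 10, and 20 months. All 3 at 2 months, 9 at 10 months, and 10 at 20 months lay within the gene. The highest at 10 and 20 months was at chr1:155155218-155156204, 23.9 kb into the gene, with 11, 56, and 64 reads at 2, 10, and 20 months, and one 52.4 kb into the gene had 11, 44, and 50 reads. At 7 of the 17 distal regions peaks were found at 10 and 20 months but not at 2 months, among them a pair of neighbours. The one 40.2 kb into the gene had 44 and 54 reads at 10 and 20 months, and the one 40.8 kb into it had 45 and 36 reads.

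At the *Lamc1* promoter, the region just inside the gene, chr1:155178489-155179895, had 19, 44, and 54 reads at 2, 10, and 20 months. A second one 0.80 kb upstream, chr1:155180419-155180956, had no peak at 2 months and 70 and 66 reads at 10 and 20 months, 31.2 and 26.4 times the genome mean. This was the highest laminin region without a peak at 2 months. The region just inside the gene stood at percentile 81.8 of the shared regions at 2 months, 33.9 at 10 months, and 36.7 at 20 months, so that, unlike at the *Lama1* region 65.0 kb upstream, its place was highest at 2 months. The places of these regions at 2 months rest on 19 reads here and 12 at *Lama1*, and 15 reads there stand at percentile 54.5. Counting error can therefore shift them far, and whether the regions differ was not tested.

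Across the family, 16 of the 59 distal regions (27.1%, exact 95% interval 16.4% to 40.3%) had a peak at all 3 ages, 19 (32.2%, 20.6% to 45.6%) at 10 and 20 months, and 16 at 20 months only. Of the rest, 5 were found at 10 months only, 2 at 2 months only, 1 at 2 and 20 months, and 0 at 2 and 10 months. Over all 52693 regions of the 3 lists the shares were 20.1% at all ages, 33.8% at 10 and 20 months, 24.6% at 20 months only, 10.4% at 10 months only, and 8.13% at 2 months only. Each of these shares lies within the interval of the laminin share. The regions shared by all ages were also wide, with a median of 1086 bp, against 395 bp for those of 10 and 20 months and 229 bp for those of 20 months only. The same order was seen over all regions, with medians of 751, 503, and 245 bp. Most distal peaks at 2 months had a counterpart at 20 months, as 18 of the 20 distal peaks at 2 months (90%, exact 95% interval 68.3% to 98.8%) lay in a region with a peak at 20 months, beside 74.8% of all peaks at 2 months. The reverse was found for 23 of the 58 peaks at 20 months (39.7%), beside 29.3% of all.

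At the 16 distal regions that were listed at every age, summit coverage was higher at both later ages than at 2 months. The median was 11.9 times the genome mean at 2 months (range 7.93 to 16.7), 25.2 times at 10 months (9.81 to 41.5), and 25.8 times at 20 months (9.19 to 41.5). All 10596 shared regions with solved reads had medians of 11.9, 23.2, and 24.4 at the same ages, and the 103 shared distal regions of the other ECM genes 11.1, 24.5, and 24.8. The laminin regions were thus near the middle of the shared regions at each age. Their ranges at 2 and 20 months overlap, but the only laminin regions at 20 months that lie within the range of 2 months are one of *Lamb2* and one of *Lamb3*.

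**Figure D3:**
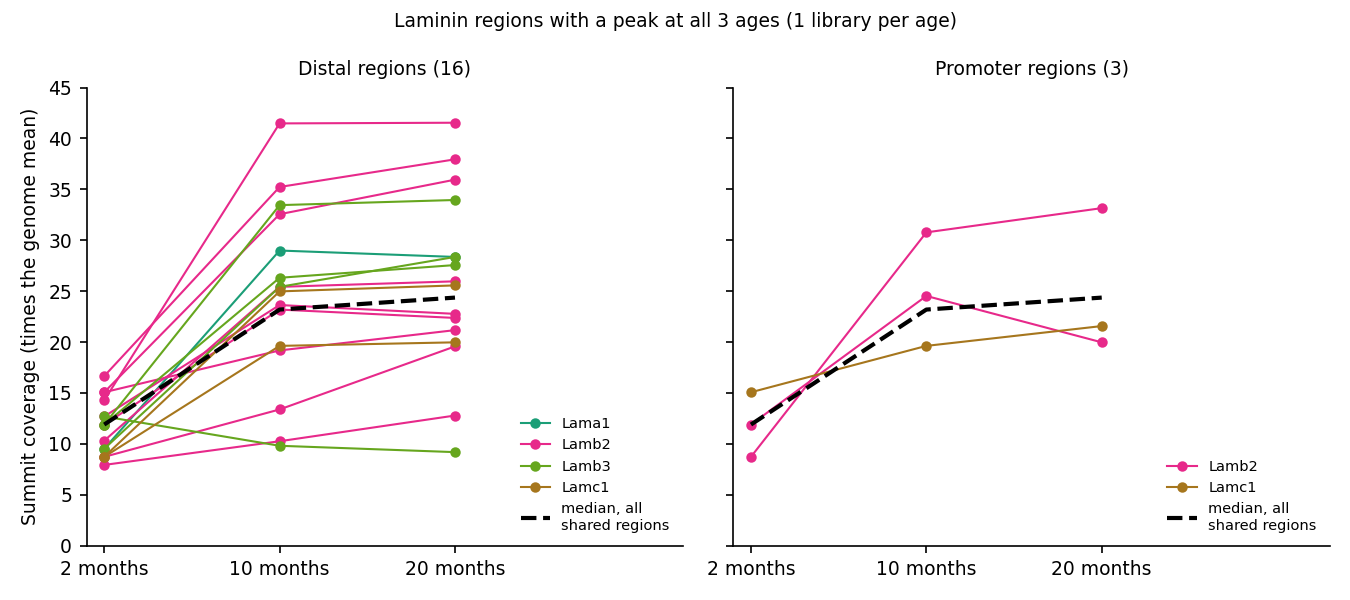
Summit coverage in times the genome mean (vertical axis) at 2, 10, and 20 months for the laminin regions that hold a peak at all ages, with a line for each region coloured by gene and the median of all shared regions dashed. The distal lines lie between 7.93 and 16.7 at 2 months, and only the *Lamb3* region 74.4 kb upstream is lower at the later ages.

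Summed over these 16 regions, the ratio of summit coverage was 2.12 for 10 over 2 months (exact 95% interval 1.83 to 2.46), 2.23 for 20 over 2 months (1.93 to 2.58), and 1.05 for 20 over 10 months (0.960 to 1.15). A region's ratio compares its highest summit at each age, and these summits need not share a position, lying up to 563 bp apart in the 16 regions. All intervals cover counting error only and not the spread between animals. Coverage was higher at 20 than at 2 months in 15 of 16 regions, beside 95.8% of all shared regions, and at least 2 times higher in 11 of 16, beside 54.4%. For 10 over 2 months the counts were 15 (beside 93.5%) and 10 (beside 47.1%). The interval of the single region lay above 1 for 20 over 2 months in 13 of 16, beside 65.8%, and for 10 over 2 months in 12, beside 58.1%. Between 20 and 10 months 12 of 16 were higher, beside 63%, none by 2 times or more, beside 0.17%, and no interval lay above 1, beside 3.35%. The median ratio was 2.30 for 20 over 2 months in the laminin regions, 2.08 in all shared regions, and 2.17 in those of the other ECM genes. With summit reads scaled to the total reads of the library instead (RPM), the ratios were larger against 2 months, 3.18 for 10 over 2 months and 2.68 for 20 over 2 months, and for 20 over 10 months the ratio was 0.843 (0.770 to 0.923), below 1. The order of 20 and 10 months at these regions therefore changes with the scale. The fragment length was 148, 222, and 178 bp at 2, 10, and 20 months. It enters the read number used for RPM but not the calculation of coverage over the genome mean. Whether summit coverage itself varies with fragment length was not tested.

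The strongest shared region of each gene was the one with the highest mean summit coverage over the 3 ages, a choice that is weighted towards the later ages and so towards high ratios. At these regions, as a description, the ratio of 20 over 2 months was 2.98 (1.60 to 6.04) at *Lama1*, 2.91 (1.75 to 5.10) at *Lamb2*, 2.85 (1.64 to 5.32) at *Lamb3*, and 2.93 (1.53 to 6.16) at *Lamc1*. For 10 over 2 months the ratios of the same regions were 3.05 (1.63 to 6.20), 2.91 (1.74 to 5.12), 2.81 (1.60 to 5.27), and 2.86 (1.48 to 6.06). With 11 to 18 reads at 2 months, the intervals are wide and those of the 4 genes overlap almost completely. Chosen by reads at 2 months instead, the region of *Lamb2* would be that 37.3 kb downstream, with 2.28 for 20 over 2 months, and that of *Lamb3* the one 74.4 kb upstream, with 0.724. With regions joined at 1 bp of overlap, the highest ratio among the 6 genes was that of the *Lamb2* promoter region inside the gene. It was 3.80 (2.02 to 7.91) for 20 over 2 months. With regions joined within 500 bp, the *Lamb2* promoter ratio was 2.79 (1.60 to 5.20), below the 2.98 of *Lama1*. Joined at 1 bp, the ratio was 1.68 (0.928 to 3.22) at the *Lamb2* region before the TSS. At the *Lamc1* promoter, where the summits of the 3 ages spread over 573 bp, it was 1.43 (0.835 to 2.56), and both intervals include 1. Pooled over these 3 promoter regions the ratio was 2.09 (1.50 to 2.97) for 20 over 2 months, 2.1 (1.50 to 2.99) for 10 over 2 months, and 0.997 (0.805 to 1.24) for 20 over 10 months. Only the *Lamb3* region 74.4 kb upstream had ratios below 1, 0.724 (0.366 to 1.47) for 20 over 2 months and 0.773 (0.388 to 1.58) for 10 over 2 months, and in RPM the second of these was 1.16. *Lama2* and *Lama3* had no region with a peak at 2 months and so no ratio.

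**Figure D4:**
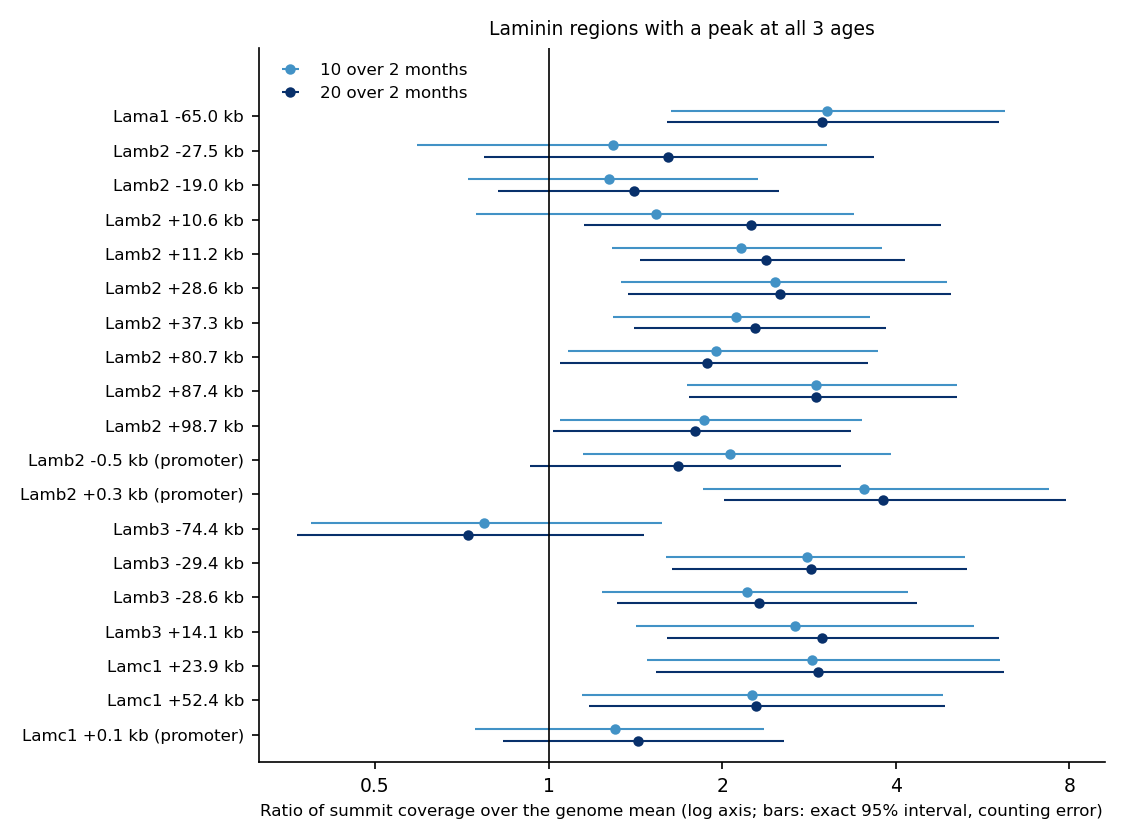
Summit coverage ratios (horizontal axis, logarithmic, each age scaled to its genome mean) for 10 over 2 months and 20 over 2 months at the laminin regions with a peak at all ages, named by gene and distance from the TSS. Bars are exact 95% intervals of counting error. The intervals include 1 at the *Lamb2* regions 27.5 and 19.0 kb upstream, the *Lamb3* region 74.4 kb upstream, and the *Lamc1* promoter for both ratios, and for 1 of the ratios at the *Lamb2* region 10.6 kb from the TSS and the *Lamb2* promoter region before it.

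The 19 distal regions with a peak at 10 and 20 months but none at 2 months were weaker than the shared ones, with a median of 14.3 times the genome mean at 10 months and 14.0 times at 20 months. Of them, 6 had higher coverage at 20 than at 10 months, and the median ratio was 0.896, beside 0.967 and 43.9% higher over all 17833 regions of this kind. In RPM none of the 19 was higher at 20 months. The 16 regions found at 20 months only had a median of 9.79 times the mean, and the highest of them, in *Lamc1* with its edge 24.9 kb from the TSS, had 49 reads or 19.6 times the mean. The 2 regions found at 2 months only had 8 reads (*Lama1*) and 12 reads (*Lamc1*).

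Genes of laminin-binding receptors and of the dystrophin-associated complex within the ECM list were counted in the same way. The 5 genes, *Itga2*, *Itga3*, *Itgb1*, and *Itgb4*, which encode integrin subunits of laminin-binding receptors, and *Sgce*, which encodes ε-sarcoglycan of the dystrophin-associated complex, had 8, 20, and 26 distal peaks at 2, 10, and 20 months, at 3, 5, and 5 of the genes. Over all 84 ECM genes the share with a distal peak was 48.8%, 67.9%, and 75% at the same ages. Of the 5 genes, the most distal peaks at 20 months were at *Itgb4*, with 3, 8, and 10 at 2, 10, and 20 months, and *Itga3*, with 4, 6, and 8. The type IV collagens, which form the other network of the basement membrane, did not share this order of ages. *Col4a1* had 4, 1, and 3 distal peaks at 2, 10, and 20 months, and *Col4a2* and *Col4a3* had none. Promoter peaks at the same ages numbered 1, 0, and 1 at *Col4a1*, 5, 1, and 1 at *Col4a2*, and 0, 0, and 1 at *Col4a3*. These are numbers of peaks and not levels, and neighbouring peaks were not merged for the collagens. Whether the families differ was not tested.

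Markers of other cells of muscle, as far as the ECM list holds them, showed the following distal peaks at 2, 10, and 20 months. The 4 endothelial genes had 12, 11, and 15, most of them at *Pecam1*, and *Selp* had none. Of the leukocyte genes, *Itgal* had 16, 20, and 23, *Itgb2* 10, 16, and 18, *Itgam* 4, 5, and 4, and *Itgax* 0, 1, and 1. The 3 fibroblast genes had 6, 5, and 11, with 6, 5, and 10 at *Col1a1* and none at *Postn*, and the 4 nervous system genes had 0, 0, and 1. The counts of *Itgal*, *Itgb2*, and the endothelial, fibroblast, and nervous system genes were highest at 20 months, as were the laminin counts, and that of *Itgam* at 10 months. The lists differ in length. As a share of the list, the distal peaks of the leukocyte genes made up 0.168% at 2 months and 0.103% at 20 months. The endothelial share was 0.067% and 0.034% at these ages, the fibroblast share 0.034% and 0.025%, and the laminin share 0.112% and 0.130%. The part of cell composition in the laminin peaks was not tested.

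Among the 84 ECM genes ordered by distal peaks at 20 months, *Lamb2* and *Lamb3* ranked 6, *Lamc1* 10, *Lama1* 32, *Lama2* 38, and *Lama3* 55. The ECM gene outside the family with the most similar counts, by the sum of absolute differences over the 3 libraries, was *Col2a1* for *Lama1*, with 2, 5, and 6 distal peaks at 2, 10, and 20 months and a sum of 1. It was *Mmp11* for *Lamb3*, with 4, 9, and 16 and a sum of 2, and *Itgb2* for *Lamb2*, with 10, 16, and 18 and a sum of 6. *Ctnnb1*, *Itgb1*, and *Itgb3* tied for *Lama2* with a sum of 2, *Icam1*, *Mmp9*, and *Sparc* for *Lamc1* with a sum of 5, and 5 genes shared the counts of *Lama3*, among them *Adamts5*, *Col3a1*, and *Ctgf*.

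The nearest TSS of the ECM list need not be that of the gene a region serves. Other protein-coding genes that lie, whole or in part, within 100 kb of the 5′ end were counted in the RefSeq annotation of GRCm38.p6. Their number was 14 for *Lamb2*, 4 for *Lamb3*, 2 for *Lama3*, 1 for *Lama1*, 1 for *Lamc1*, and 0 for *Lama2*. *Lamb2* is followed by *Usp19* and *Qars* and preceded by *Ccdc71*, so that its many distal peaks lie in a stretch crowded with genes. The nearest gene upstream of *Lama1* is *Lrrc30*, and *Lamb3* is preceded by *G0s2* and *Hsd11b1*. All *Lama1* and most *Lamb3* distal peaks lie on these upstream sides. Whether they belong to these neighbours was not tested, as mm9 positions of the neighbours were not at hand. The outer limit fell between a *Lamb2* region whose peaks begin 98.5 to 98.9 kb from the TSS, with 16, 53, and 57 reads at 2, 10, and 20 months, and peaks left out at 113 kb from *Lamb3* (27 reads at 10 months) and 107 kb from *Lamc1* (29 reads at 20 months).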

How the data were processed

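H3K27ac ChIP-seq peaks of TA muscle were taken from 3 peak lists, 1 library per age. The submitters' processing notes name mm9, Bowtie2, and MACS2 2.1.0, and the use of a control library is not given in the sources used here. The deposited lists hold, for each peak, a score, the fold (a ratio of summit pileup to background), a −log10 p-value, a −log10 q-value, and another column with the offset of the summit, all computed by the authors. The score was not used. The p and q of the authors served to solve reads and to rank peaks within a list, not to compare lists.

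All computing was done in Python (3.11.15) using pandas (2.3.3), numpy (2.4.6), scipy (1.17.1), and, for plots, matplotlib (3.10.9). Summit reads and background were found as the whole number of reads that returns the deposited fold and −log10 p within 0.001. On simulated data this returned the reads of 100% of 3000 peaks per library. At 10 and 20 months 1 peak each was not solved. The genome mean was the lowest background of a list, the fragment length its smallest peak width, and the read number the mean times the MACS2 mouse genome size over that length. This floor was the background of 78.3%, 2.87%, and 4.89% of the peaks at 2, 10, and 20 months. Regions were joined at 1 bp of overlap, and a region's level is its highest summit. Intervals for shares are Clopper-Pearson, and those for ratios are exact conditional binomial.

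All 6 members are named, with up to 3 ECM genes of most similar counts for each and those with the most distal peaks in the receptor, collagen, and marker lists or with none. The text does not name every gene of these lists, and 1 leukocyte gene is not reported here. The members and lists were chosen with earlier results of these data known. Alternatives were other distance limits, equal or stricter lists, merging, a minimum width or summit, RPM, and joining within 500 bp. Gene positions are those of the study's ECM list, and neighbours and sequences are from RefSeq (GRCm38.p6), used by name only and not converted. *Lama1*, *Lamc1*, and *Lama3* sequences were not used here.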

Additional observations from a re-analysis of the deposited data

How the results depend on the processing

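Of the alternative values, 90 were classed as the same and 18 as moved. A count was the same within a set factor of the value given, and a ratio when it lay inside the interval of the value given. That interval is wide for single regions. The *Lama1* ratio of 10 over 2 months was classed as the same at 4.57 in RPM, against 3.05 in the main setting. An outer limit of 50 kb gave 12, 21, and 28 laminin distal peaks at 2, 10, and 20 months and left *Lama1* and *Lama3* with none. Lists of 17884 peaks gave 18 at 10 months and 22 at 20 months, and there *Lama2* had 1 distal peak, at 10 months. The strictest 50% of each list gave 10, 18, and 25, with 2 genes at 2 months. Merging within 1 kb gave 38 at 20 months, a minimum width of 222 bp gave 9 at 2 months, and a minimum summit of 10 times the mean gave 11 at 2 months, at 2 genes. In RPM the distal ratios were 3.18 (10 over 2 months), 2.68 (20 over 2), and 0.843 (20 over 10), and the promoter ratios 3.15 (10 over 2) and 0.799 (20 over 10, 0.646 to 0.990). The counts thus depend on list length and summit height, and the ratio of 20 over 10 months on the scale. No paired analysis was possible because each age has 1 library, and no library could be left out within an age. At 2 months 11 to 19 reads carry most single ratios, and regions under 6.34 times the genome mean could not be listed there.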

Other observations

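The peaks within 100 kb do not cover the longest gene. Over its whole 636 kb, *Lama2* held 0, 4, and 6 peaks at 2, 10, and 20 months, and 0, 2, and 3 of these lay more than 100 kb from the TSS. The strongest of them had 36 reads at 10 months, 16.1 times the genome mean, which is above the 13.8 of the *Lama2* promoter at that age, while at 20 months the strongest had 29 reads, 11.6 times the mean, below the 16.0 of the promoter. Per 100 kb of gene as listed, *Lama2* had 0.629 peaks at 10 months and 0.944 at 20 months. *Lamc1* had 4.39, 8.78, and 11.4 at 2, 10, and 20 months, *Lamb3* 2.40, 7.21, and 12.0, *Lamb2* 18.7 at each age, and *Lama1* and *Lama3* none at any age. For *Lama3* this covers only the listed 78.8 kb, while its RefSeq gene extends over 249.6 kb, and peaks in the rest of it were not counted here.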
